A study of Mus musculus with 3 samples.

Results

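The screen measured 709 mouse microRNAs, and 107 of them carry a number of 1000 or higher, from miR-1186 to miR-2183. These 107 microRNAs were chosen by their number alone, as the first integer in the deposited assay name, and no measured value was used. All 107 assays were on plate 2, where they made up 32.5% of 329 microRNA assays. The other 222 assays of plate 2 were measured in the same runs and against the same reference RNAs, and served as the comparison here. The prefix mmu is left out of names below.

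The samples were neural stem cells (NSCs) from fetal mouse forebrain, embryonic stem cells (ESCs) and mouse embryonic fibroblasts (MEFs), 1 sample of each. The NSCs came from an earlier study of the same group and had been expanded with bFGF and PDGF-AA on Matrigel. According to the series description, equal amounts of RNA were pooled before profiling, and it does not say from how many cultures. The labels name no genetic change and no treatment that would separate the cell types, and give no strain or age. Small RNAs were given a poly-A tail, copied into cDNA from an oligo-dT adaptor, and measured in 2 runs per sample by SYBR Green qRT-PCR over 40 cycles. These runs are technical repeats of 1 sample, so no test between cell types was possible. Every error below is PCR error of the named assays only, without that of the reference RNAs. In such bulk RNA, fewer cells that carry a microRNA and less of it per cell cannot be told apart.

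MicroRNAs are short RNAs, cut from a hairpin, that guide Argonaute proteins to messenger RNAs. Targets are recognised mainly through the seed, bases 2 to 8 of the mature microRNA. Numbers are given in order of discovery, so the highest numbers of this panel belong to microRNAs found late, mostly by deep sequencing of small RNA libraries. Some entries from that time were later withdrawn from the microRNA database because they matched fragments of abundant RNAs such as transfer or ribosomal RNA. In human cells, for example, miR-1274a is known to match the end of a transfer RNA. Whether the assays measured here also detected other RNAs was not tested.

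For 48 of the 107 assays, RefSeq (GRCm38.p6) held a mature microRNA of exactly the same name. These were 17 to 26 bases long, with a median of 22, and carried 48 distinct seeds, so no members of this set shared one. The sequences below are those on which the following results turn, namely both arms of miR-1894, members that differed between cell types or did not, and those at the ends of the range of base composition. They are written 5′ to 3′ with the seed in capitals.
miR-1894-5p: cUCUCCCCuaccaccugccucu
miR-1894-3p: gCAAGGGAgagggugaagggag
miR-1897-3p: uCAACUCGuucuguccggugag
miR-1931: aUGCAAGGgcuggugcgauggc
miR-1839-5p: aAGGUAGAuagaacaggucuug
miR-1906: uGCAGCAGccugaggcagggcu
miR-1983: cUCACCUGgagcauguuuucu
miR-1946b: gCCGGGCAgugguggcacaugcuuuu
miR-2137: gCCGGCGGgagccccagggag
miR-1192: aAACAAACaaacagaccaaauu
miR-1950: uCUGCAUCuaaggauaugguca

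Levels were read from the threshold cycle, Ct, where 1 cycle less means about 2 times as much RNA. From the Ct averaged over both runs, the average Ct of 3 reference RNAs (U6, RNU43 and U1) on that plate was subtracted to give the dCt, so a lower dCt is a higher level. MicroRNAs known to mark a cell type served to check the labels. The dCt of miR-9, known from neural cells, was -0.40 in NSCs, 12.18 in ESCs and 9.85 in MEFs. In the same order, miR-9* had -1.51, 7.97 and 9.11. The dCt of miR-124, also taken as a neural marker, differed far less, with 5.37, 6.48 and 6.50. The dCt of miR-295, of the cluster typical of ESCs, was 10.75 in NSCs, -1.65 in ESCs and 9.62 in MEFs. The 5 microRNAs taken as fibroblast markers (miR-199a-3p, miR-199a-5p, miR-143, miR-145 and miR-214) lay at a dCt of -0.32 to 2.58 in MEFs, 0.78 to 3.79 in ESCs and 3.99 to 12.08 in NSCs. The ESC sample therefore held these microRNAs nearer to the MEF than to the NSC level, with the exception of miR-214, and their part in the comparisons below was not tested. The same holds for miR-142-3p, known from blood cells, whose dCt was 10.96 in NSCs, 4.10 in ESCs and 4.80 in MEFs.

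Primers differ between assays, so the Ct of different assays gives no order of abundance. The microRNAs numbered 1000 or higher were detected early. A mean Ct of at most 32 was reached by 88 of 107 assays (82.2%) in NSCs, 71 (66.4%) in ESCs and 92 (86.0%) in MEFs. Of the 222 other assays on the plate, 137 (61.7%), 95 (42.8%) and 150 (67.6%) reached it. The median Ct was 28.6, 30.1 and 28.9 in NSCs, ESCs and MEFs, against 31.4, 32.4 and 30.7 for the other assays. The difference from the other assays thus had the same sign in all 3 cell types. Where Ct did not exceed 32, the runs lay a median of 0.139, 0.130 and 0.145 cycles apart in NSCs, ESCs and MEFs. At later Ct the median gap was 0.753, 0.426 and 0.475 cycles.

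The earliest assays of the plate were nearly all members of this set. Of the 10 assays with the lowest Ct, 9 in NSCs, 9 in ESCs and 10 in MEFs were numbered 1000 or higher, and of the 20 lowest 16, 18 and 16 were. The 15 that were among the 20 lowest in every cell type were miR-1274a, miR-1937a, miR-1937b, miR-1937c, miR-1939, miR-2132, miR-2133, miR-2134, miR-2135, miR-2140, miR-2141, miR-2144, miR-2145, miR-2146 and miR-2182. By name, RefSeq held no microRNA gene for any of these 15 assays, while 79 assays of the set had such a gene. What RNA these 15 assays detected was not tested. The lowest Ct of the plate belonged to miR-2134 in all 3 cell types. Its runs gave 17.95 and 17.93 in NSCs, 19.04 and 19.05 in ESCs, and 17.41 and 17.53 in MEFs. In each cell type 13 or more members were detected before U1, the earliest reference RNA, and the same 13 were in all of them.

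**Figure D1:**
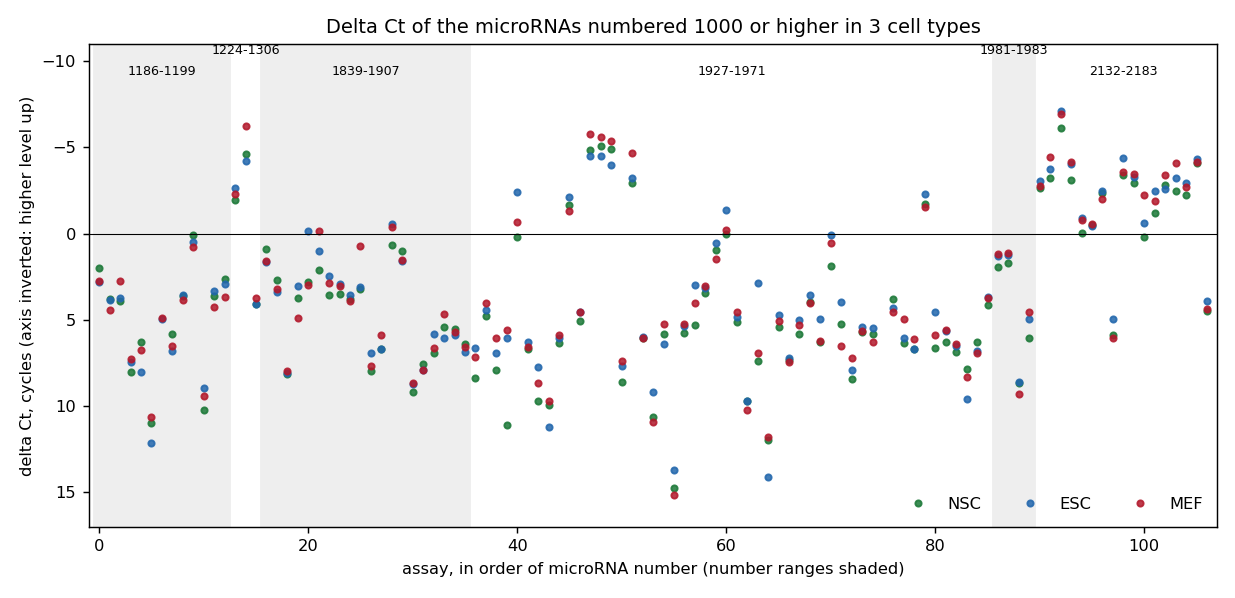
The dCt in cycles (vertical axis, inverted so that a higher level is up) of each assay numbered 1000 or higher, in order of number along the horizontal axis. Points are the mean of the runs in NSCs (green), ESCs (blue) and MEFs (red), shading separates ranges of numbers, and most of the 17 assays from miR-2132 to miR-2183 lie above the line at a dCt of 0.

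The early assays were concentrated in 1 range of numbers. The 17 assays from miR-2132 to miR-2183 had a median Ct of 21.6 in NSCs, 23.2 in ESCs and 21.6 in MEFs. All 17 had a mean Ct of at most 32 in every cell type, and 15 lay under 26 in every cell type. The 50 assays from miR-1927 to miR-1971 had median Ct values of 29.9, 31.52 and 29.998, and 8 of them lay under 26 in every cell type. The 20 assays from miR-1839 to miR-1907 had medians of 27.8, 29.6 and 28.7, and the 13 from miR-1186 to miR-1199 had 27.9, 30.002 and 28.8. The medians of the number ranges thus lay further apart than those of the cell types.

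In the families named by a letter, the assays of miR-1937 were close to each other and those of miR-1946 less so. The Ct of miR-1937a, miR-1937b and miR-1937c lay within 0.21 cycles of each other in NSCs, 0.54 in ESCs and 0.42 in MEFs. Their dCt ran from -5.08 to -4.87 in NSCs, from -4.52 to -3.98 in ESCs and from -5.77 to -5.35 in MEFs, so that all 3 were lower in ESCs than in MEFs, by log2 folds from -1.38 to -1.10, which kept their sign with each reference RNA alone. Their order in NSCs and MEFs turned with RNU43 alone, as did that of miR-1937a in NSCs and ESCs with U6 or U1 alone. The assays of miR-1946a and miR-1946b were 0.92, 1.89 and 1.67 cycles apart in NSCs, ESCs and MEFs, with miR-1946b the earlier one throughout. The level of miR-1946b in ESCs exceeded that in MEFs by 1.18 ± 0.10 on the log2 scale and that of miR-1946a by 0.96 ± 0.16. Assays of such near-identical microRNAs may detect each other's product, which was not tested.

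Base composition went with Ct. Across 47 members with a sequence and a Ct in all 3 cell types, the share of G and C and the mean Ct had a Pearson r of -0.58 and a Spearman rho of -0.52. These points share samples, runs and the amplification chemistry, and are not independent replicates. None of the 15 earliest assays listed above had a matched sequence, so they were not among the 47. The lowest mean Ct among the 47 was 23.9, for miR-1931. Of these members, 15 had at least 60% G and C and a median of the mean Ct of 27.8, 22 had between 50 and 60% and a median of 30.7, and 10 had under 50% and a median of 33.1. The sequence richest in G and C, that of miR-2137 (85.7%), had a mean Ct of 24.4, and the poorest, that of miR-1192 (27.3%), had 36.1. For 54 other assays of the plate with a matched sequence, r was -0.38 and rho -0.41. The share of G and C had little relation to the range of dCt over cell types, with an r of -0.14 and a rho of -0.10. The median share was 55.5% for the 48 matched members and 52.4% for the 54 other assays.

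**Figure D2:**
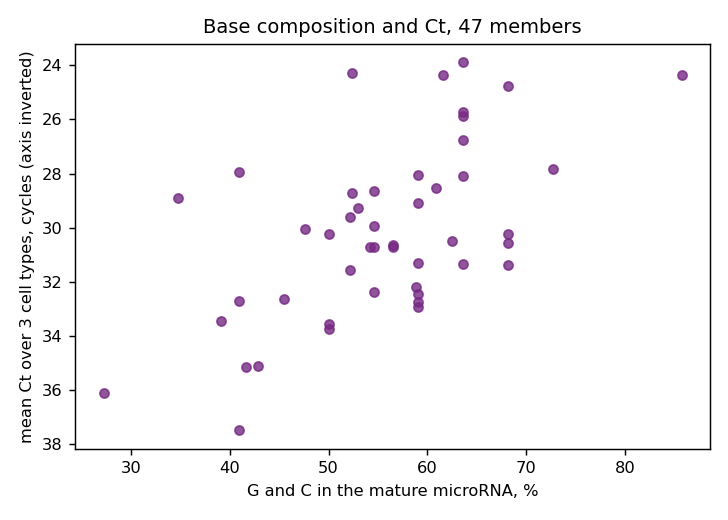
The share of G and C in the mature sequence in percent (horizontal axis) and the mean Ct over NSCs, ESCs and MEFs in cycles (vertical axis, inverted) for 47 members, 1 point each. Members rich in G and C lie mostly towards a low Ct, and miR-2137 at 85.7% has a mean Ct of 24.4.

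The levels of these microRNAs varied less between the cell types than those of the other assays of the plate, by a margin that depended on the reference RNA. The range of dCt, highest minus lowest over the 3 cell types, had a median of 0.90 cycles over the 105 members measured in all of them. The median was 1.33 cycles for 217 other assays of plate 2 and 1.70 for plate 1. The median of the members minus that of the other assays of plate 2 was -0.42 cycles, and it was -0.22 with U6 alone, -0.24 with RNU43 alone and -0.14 with U1 alone. A range under 1 cycle was found for 57 members (54.3%) and for 88 of the other assays (40.6%). A range of 2 cycles or more was found for 12 members (11.4%) and 60 of the other assays (27.6%). Since the other assays were later, the same was computed over assays with a Ct of at most 32 in all 3 cell types, where the median was 0.85 cycles for 70 members and 1.01 for 85 other assays. Among these, a range of 2 cycles or more was found for 10 members (14.3%) and 17 of the other assays (20%), so both contrasts were smaller. By mean Ct over the cell types, such ranges were found for 3 of 26 members and 2 of 10 other assays up to 25. From 25 to 28 there were 3 of 14 and 2 of 23, a higher share among the members. From 28 to 30 there were 1 of 18 and 10 of 33, from 30 to 32 there were 3 of 27 and 19 of 63, and later 2 of 20 and 27 of 88. The median range was smaller for the members in each window.

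**Figure D3:**
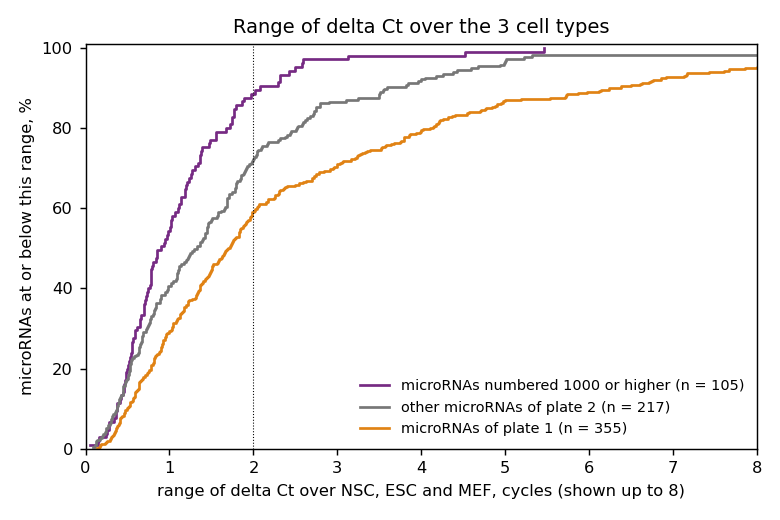
The share of microRNAs in percent (vertical axis) whose range of dCt over NSCs, ESCs and MEFs is at or below the value in cycles on the horizontal axis, for microRNAs numbered 1000 or higher (purple), other assays of plate 2 (grey) and plate 1 (orange). The purple line rises first, and 11.4% of the members lie at or past the dotted line at 2 cycles, against 27.6% of the other assays of plate 2 (14.3% and 20% among assays with a Ct of at most 32 in all cell types).

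With the mean of the reference RNAs, the smallest ranges were found for miR-1940, miR-1892 and miR-2137, picked after their values were seen. Their ranges with a single reference RNA were not computed. The median range of all members was 1.20 cycles with U6 alone, 1.21 with RNU43 alone and 1.31 with U1 alone, against 0.90 with the mean. The small ranges here therefore belong to that reference and do not show a constant level. For miR-1940 the dCt was 6.04 in NSCs, 5.98 in ESCs and 6.03 in MEFs. For miR-2137 it was -0.49, -0.42 and -0.58, and for miR-1892 it was 8.13, 8.10 and 7.98. The gene of miR-1306 overlaps Dgcr8, the partner of Drosha in hairpin cutting. With the same mean reference its level also changed little, with a dCt of 4.10, 4.09 and 3.73. The dCt of miR-1224, whose gene overlaps Vwa5b2, was -1.98 in NSCs, -2.63 in ESCs and -2.29 in MEFs. That of miR-1186 was 2.00, 2.78 and 2.73.

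The next question was which of these microRNAs differed between NSCs and the other cells. A call required a 4-fold difference or more, runs that stayed apart between the cell types, and a Ct of 32 or less where the level was higher. Beside the members' counts stand the shares of all microRNAs of the screen and of the other assays of plate 2. In NSCs relative to MEFs, 0 of 105 members were called higher and 4 lower, where 1.75% and 13.9% of all microRNAs, and 0.909% and 9.55% of the other assays of plate 2, were called higher and lower. In NSCs relative to ESCs, 0 of 105 were called higher and 5 lower, against 2.95% and 14.9% of all microRNAs and 1.83% and 9.63% of the other assays of plate 2. In ESCs relative to MEFs, 3 of 106 were called higher and 2 lower, against 5.3% and 3.24% of all microRNAs and 2.76% in each direction of the other assays. These comparisons share samples, so each is given by its own values. Counted once each, 11 of 107 members (10.3%) were called in any comparison, against 40 of 222 other assays of plate 2 (18.0%). Both the 11 and the 4 lower in NSCs than in MEFs include miR-1930, whose call rested on 1 well, as described below. No test was run on these counts.

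The count of 0 members higher in NSCs depended on the reference RNA. The Ct of U6 was 2.56 cycles later in ESCs than in NSCs, that of U1 2.60 cycles and that of RNU43 1.11 cycles. Relative to MEFs, U6 was earlier in NSCs by 0.76 cycles and U1 by 1.00, while RNU43 was later in NSCs, with a MEF minus NSC difference of -0.80 cycles. With RNU43 alone, miR-1199, miR-1893 and miR-1957 were called higher in NSCs than in MEFs, miR-1191 and miR-1969 were called higher in NSCs than in ESCs, and 0 members were called lower in NSCs than in MEFs. The share of all microRNAs called with RNU43 alone was not computed. A reference RNA moves every assay of a plate alike, so the difference between the median log2 folds of the members and of the other assays of plate 2 does not depend on it. The median log2 fold of the members was -0.42 in NSCs relative to MEFs and that of the other assays -0.35. It was -0.38 and -0.40 relative to ESCs, and 0.02 and -0.03 in ESCs relative to MEFs. Within 1 on the log2 scale lay 78.1%, 73.3% and 72.6% of the members and 60.5%, 58.3% and 64.5% of the other assays, in the same order of comparisons, with the mean of the reference RNAs.

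Of the called members, miR-1949 and miR-1894-3p had the highest level in ESCs by the widest margins. The runs of miR-1949 gave a Ct of 29.04 and 29.05 in ESCs, 31.53 and 31.41 in NSCs, and 31.28 and 31.31 in MEFs. Its dCt was 2.89 in ESCs, 7.40 in NSCs and 6.91 in MEFs, and its ESC runs stood apart from all others. The level in NSCs was lower than in ESCs by a log2 fold of -4.52 ± 0.06, or 22.9-fold, and that in ESCs was higher than in MEFs by 4.02 ± 0.02, or 16.3-fold. It was called in both comparisons under every alternative tried.

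The miR-1894 hairpin, whose gene overlaps Ppp1r10, a regulatory subunit of protein phosphatase 1, was measured by an assay for each arm. The Ct of miR-1894-3p was 26.06 and 25.96 in ESCs, 26.76 and 27.01 in NSCs, and 27.43 and 27.30 in MEFs. Its dCt of -0.15 in ESCs compared with 2.82 in NSCs and 2.98 in MEFs, so it was 7.83-fold lower in NSCs than in ESCs (log2 fold -2.97 ± 0.13) and 8.71-fold higher in ESCs than in MEFs (3.12 ± 0.08). With RNU43 alone the first log2 fold was -1.99, just short of a call, and the second remained a call. The 5p arm had another order. The Ct of miR-1894-5p was 24.36 and 24.07 in MEFs, 27.12 and 27.22 in ESCs, and 26.04 and 26.33 in NSCs, which gave a dCt of -0.18, 1.01 and 2.12. It was 4.91-fold lower in NSCs than in MEFs (-2.30 ± 0.21), a call that was lost with RNU43 alone (-1.18) and with the mean of the plate's microRNAs (-1.90). The 3p arm was thus highest in ESCs and the 5p arm highest in MEFs, in runs of the same samples.

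The difference between the arms was free of any reference RNA, since both were read in the same sample. The Ct of the 5p arm minus that of the 3p arm of miR-1894 was 1.16 ± 0.07 cycles in ESCs, -0.70 ± 0.19 in NSCs and -3.15 ± 0.16 in MEFs. It spanned 4.31 cycles and changed sign between the cell types. The corresponding difference for miR-1897 was -0.58 ± 0.10 in NSCs, -0.44 ± 0.14 in ESCs and -3.17 ± 0.13 in MEFs, so the MEF sample stood apart. For miR-1839 it was 1.78 ± 0.15, 1.69 ± 0.08 and 1.63 ± 0.23 in NSCs, ESCs and MEFs, a span of 0.156 cycles, which is within the PCR error. Primers differ between the assays, so such a difference is not the ratio of the arms in a cell type.

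The other 3 hairpins with a pair of assays were read at late Ct in at least 1 assay. For miR-1933 the 5p minus 3p difference was 0.24 ± 0.23 in NSCs, 3.47 ± 1.34 in ESCs and 1.06 ± 0.07 in MEFs, with the 5p assay at a Ct of 37.4 in ESCs. For miR-1941 it was -4.78 ± 0.39 in NSCs and -5.68 ± 0.09 in MEFs, and -2.77 in ESCs, where the 3p assay had 1 well. The Ct of miR-1982* minus that of miR-1982.1 was -6.94 ± 0.46 in NSCs, -7.36 ± 0.04 in ESCs and -8.18 ± 0.18 in MEFs.

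**Figure D4:**
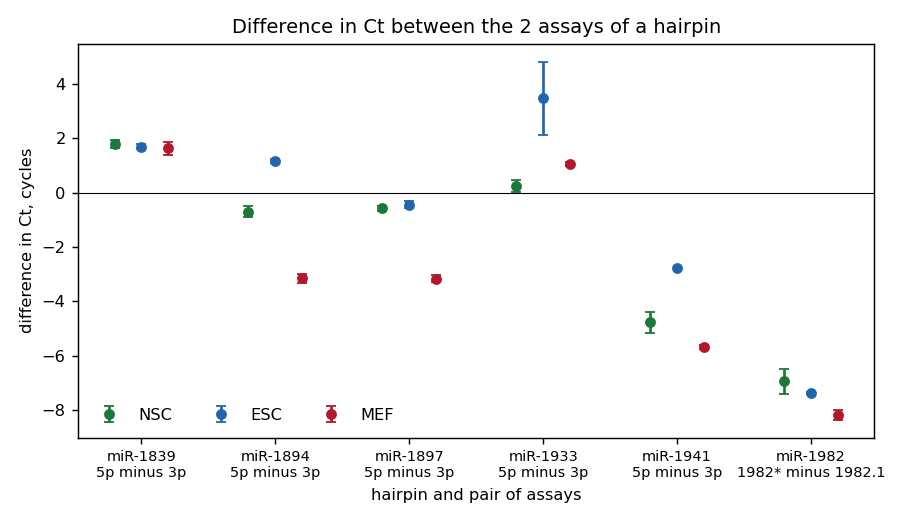
The difference in Ct in cycles (vertical axis) between the assays of each hairpin that had a pair, in NSCs (green), ESCs (blue) and MEFs (red). Bars are PCR error from the runs, none is drawn for miR-1941 in ESCs, and miR-1894 spans 4.31 cycles while miR-1839 spans 0.156.

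A group of members was highest in MEFs. The gene of miR-1897 overlaps Sox2ot, a long noncoding RNA that also contains the stem cell gene Sox2. The Ct of miR-1897-5p was 25.02 and 25.24 in MEFs, 27.29 and 27.31 in NSCs, and 29.34 and 29.18 in ESCs, so that its dCt was 0.74, 3.23 and 3.10. It was 5.64-fold lower in NSCs than in MEFs (log2 fold -2.49 ± 0.11) and 5.15-fold lower in ESCs than in MEFs (-2.36 ± 0.14). The log2 fold of NSCs over ESCs was -0.13 ± 0.08, and its sign turned with the reference. It was 0.85 with RNU43 alone, -0.60 with U6 alone and -0.64 with U1 alone. With RNU43 alone the log2 fold of NSCs over MEFs was -1.38, which was not a call. The other arm, miR-1897-3p, had a dCt of 3.81, 3.54 and 3.91 in NSCs, ESCs and MEFs and was not called.

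The Ct of miR-2142 was 22.14 and 22.19 in MEFs, 24.33 and 24.20 in NSCs, and 25.49 and 25.60 in ESCs. Its level in NSCs was 5.35-fold lower than in MEFs (-2.42 ± 0.07), and with RNU43 alone the log2 fold was -1.30, which was not a call. The Ct of miR-1274a was 18.00 and 18.28 in MEFs, 19.36 and 19.57 in NSCs, and 21.82 and 22.03 in ESCs. It was 4.06-fold lower in ESCs than in MEFs (-2.02 ± 0.17), just past the limit of 4-fold, and 3.13-fold lower in NSCs than in MEFs (-1.65 ± 0.17), which was not a call. Its ESC call was lost with U6 or RNU43 alone. Just short of the limit in NSCs relative to MEFs lay miR-1929, at -1.86 ± 0.26.

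The call of miR-1930 in NSCs relative to MEFs rested on 1 well. Its NSC runs gave a Ct of 29.91 and 40.37, a gap of 10.46 cycles, and the later value lies past the 40 cycles that the labels give. The ESC runs were 32.83 and 31.63 and the MEF runs 29.88 and 30.12. The log2 fold of -5.46 ± 5.23 had an error as large as itself, and the first runs alone gave -0.35. It was therefore not read as a difference between the cell types.

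Lower in NSCs than in ESCs, beside miR-1949 and miR-1894-3p, were miR-1931, miR-1944 and miR-1966. The Ct of miR-1931, whose gene overlaps the cyclin-dependent kinase gene Cdk17, was 24.14 and 24.35 in NSCs, 23.69 and 23.80 in ESCs, and 23.61 and 23.76 in MEFs. Its dCt was 0.17, -2.41 and -0.70, a log2 fold of NSCs over ESCs of -2.59 ± 0.12. Its mean Ct was 24.24 in NSCs and 23.74 in ESCs, while the reference RNAs had a mean of 24.07 in NSCs and 26.15 in ESCs. The mean Ct of miR-1944 was 29.35 in NSCs and 29.12 in ESCs. Its dCt was 5.29, 2.96 and 4.02, a log2 fold of -2.32 ± 0.06. That of miR-1966, whose gene overlaps Ripor1, was 6.62, 4.54 and 5.86, or 4.23-fold lower (-2.08 ± 0.33). All 3 fell short of a call with RNU43 alone or with the mean of the plate's microRNAs as the reference. The call of miR-1966 was also lost at 1.9-fold per cycle (-1.93).

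One further member was called in ESCs relative to MEFs. The Ct of miR-1957 was 29.93 and 30.28 in ESCs, 29.15 and 29.41 in NSCs, and 31.12 and 30.72 in MEFs. Its dCt of 3.95 in ESCs, 5.21 in NSCs and 6.53 in MEFs gave a 5.99-fold higher level in ESCs than in MEFs (2.58 ± 0.27). It was also the member with the largest fold of NSCs over MEFs, 1.32 ± 0.24, which was not a call. Next to it were miR-1893 at 1.18 ± 0.03, miR-1199 at 1.01 ± 0.09, miR-1962 at 0.79 ± 0.11 and miR-1186 at 0.73 ± 0.14.

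**Figure D5:**
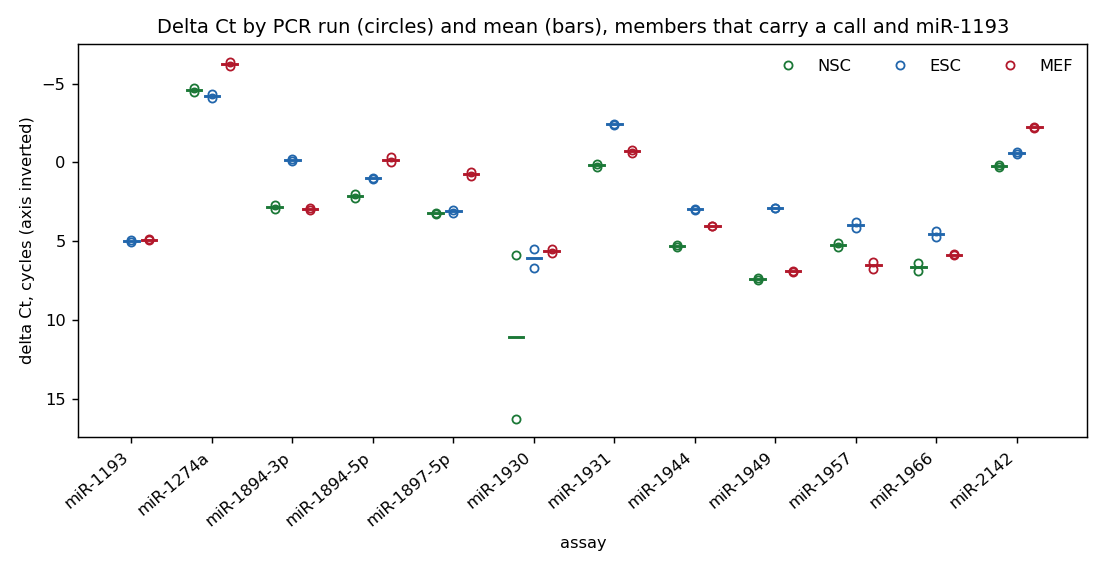
The dCt in cycles (vertical axis, inverted) of the 11 members with a call in any comparison and of miR-1193, in NSCs (green), ESCs (blue) and MEFs (red). Circles are the runs and bars their mean, and the NSC runs of miR-1930 lie 10.46 cycles apart while miR-1193 has no value in NSCs.

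Among members with all 4 wells, the largest folds of NSCs over ESCs belonged to assays that were late in ESCs. The Ct of miR-1969 was 31.99 and 31.83 in NSCs and 35.33 and 36.20 in ESCs, a log2 fold of 1.77 ± 0.44. That of miR-1191 was 30.25 and 30.42 in NSCs and 33.51 and 34.83 in ESCs, a log2 fold of 1.75 ± 0.67. For both, the second run alone passed 4-fold and the first did not. The next were miR-1933-5p at 1.26 ± 1.23, miR-1192 at 1.16 ± 0.82 and miR-1194 at 1.01 ± 0.44, of which the first has an error about as large as its value.

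Of the members, 4 lie in the imprinted Dlk1-Dio3 region, a cluster of maternally expressed noncoding RNAs and microRNAs known from stem cells and brain. Among them, miR-1193 gave no Ct in either NSC run, while its runs gave 31.21 and 31.05 in ESCs and 29.30 and 29.26 in MEFs. If the NSC level is placed at a Ct of 32, its level there was at least 7.76-fold lower than in ESCs and at least 8.25-fold lower than in MEFs. At an assumed Ct of 35 the bounds would be 62.1- and 66.0-fold. With RNU43 alone all of these bounds would be smaller, and they were not computed. With that reference the log2 fold of miR-1949 in NSCs relative to ESCs went from -4.52 to -3.54. That of miR-1894-5p in NSCs relative to MEFs went from -2.30 to -1.18. An empty well can be a failed reaction or a low level, and the data do not tell these apart. The dCt of miR-1188, whose gene overlaps the noncoding RNA Rian, was 3.93 in NSCs, 3.74 in ESCs and 2.73 in MEFs. That of miR-1197 was 10.24, 8.97 and 9.44, at Ct values above 33 throughout. That of miR-1906, whose gene has a copy in Meg3 and another outside the region, was 5.52, 5.88 and 5.69. The other 3 members of the region were thus measured in NSCs.

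Besides miR-1193, only miR-1961 lacked a value in a whole cell type, and it gave no Ct in any of its 6 wells. This microRNA begins with the same 13 bases as let-7g-5p, a member of the let-7 family that promotes differentiation. The shared bases are in capitals in the following lines.
miR-1961: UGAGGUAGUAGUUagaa
let-7g-5p: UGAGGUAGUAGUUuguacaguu
The 8 assays of the main let-7 strands, let-7a to let-7i, were on plate 1, while miR-1961 was on plate 2. They were measured in every cell type, at a Ct of 27.88 to 30.23 in NSCs, 30.02 to 33.20 in ESCs and 27.12 to 29.99 in MEFs. The empty wells of miR-1961 were seen in the same samples, on another plate, in which these let-7 assays gave a product. It was singled out after its values were seen. Another 3 lacked single wells: miR-1941-3p had 1 of 2 in ESCs, miR-1942 had 1 of 2 in NSCs and in ESCs, and miR-1950 had 1 of 2 in ESCs and in MEFs.

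The genomic setting of the assays was taken from RefSeq by name. A microRNA gene was found for 79 of the 107 assays, and for 64 of these it overlapped another gene, protein-coding for 56, a long noncoding RNA for 10 and a transfer RNA for 1. The last was miR-1983, which overlaps the transfer RNA gene n-TItat14, and its dCt was 6.07 in NSCs, 4.94 in ESCs and 4.52 in MEFs. The gene of miR-1839 overlaps the noncoding RNA 2900076A07Rik, and its 3p arm had a dCt of 0.88, 1.67 and 1.58. The gene of miR-1982 overlaps Oaz1, the antizyme that controls polyamine synthesis. Exon and intron positions were not annotated in the table used, and levels of the overlapping genes were not measured.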

How the data were processed

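In the deposited tables, the authors give 2 values in cycles for 3 samples on 2 plates: the Ct of every well in both PCR runs, and a delta Ct per sample. Their tables of folds and p-values for NSCs against the other cells were not used. A supplementary table of the paper holds MEF values that differ from the deposited Ct, and comparisons with MEFs were not repeated with them. How Ct was set is not stated in the labels or methods.

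Runs were averaged (a single well was kept), and the reference RNAs of the plate were averaged and subtracted. This equalled the deposited delta Ct for all 105, 106 and 106 member values in NSCs, ESCs and MEFs (tolerance 0.001). Log2 folds are differences of dCt and take 2-fold amplification per cycle. Errors combine, in quadrature, the SD between runs over the square root of 2 from both samples. They cover PCR error only, since each cell type had 1 sample. Both runs of an assay were set against the same averaged reference. The PCR error of the reference RNAs is therefore left out of the errors and of the rule that runs stay apart. The call rule was checked on simulated Ct values, with the reference RNAs set to the same Ct in every sample. That check therefore does not cover the dependence of calls on the reference RNA.

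Named microRNAs are the called ones, the 10 lowest Ct per cell type, the 5 largest and smallest folds per comparison with all wells, those unmeasured in a cell type, hairpins with 2 assays, the miR-1937 and miR-1946 families, Dlk1-Dio3 members, miR-1186, miR-1224 and miR-1306. Others were named after their values were seen. Members and lists were chosen with earlier results of these data known. Names, overlaps and sequences came from RefSeq (GRCm38.p6). The deposited files name no build, so no coordinates are given, and sequences of the assay primers were not used here. Alternatives were a single reference RNA or the mean of the plate's microRNAs, late wells capped or dropped, runs within 1 cycle, 1 run, 1.9-fold per cycle and a log2 limit of 1. Python 3.11.15, pandas 2.3.3, numpy 2.4.6 and matplotlib 3.10.9 were used.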

Additional observations from a re-analysis of the deposited data

How the results depend on the processing

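No paired analysis was possible because each cell type had 1 sample. The share of all microRNAs called was computed under the main settings only, so the counts below have no such share beside them. Members called lower in NSCs than in MEFs went from 4 to 8 with U6 alone, 0 with RNU43 alone, 11 with U1 alone, 2 with the mean of the plate's microRNAs and 19 at a log2 limit of 1, and those called higher from 0 to 3 with RNU43 alone or at a log2 limit of 1. Members called lower in NSCs than in ESCs went from 5 to 1 with RNU43 alone (miR-1949), 2 with the plate mean and 15 at a log2 limit of 1, and those called higher from 0 to 2 with RNU43 alone, the plate mean or the second run alone, and to 3 at a log2 limit of 1. In ESCs relative to MEFs, members called higher went from 3 to 10 at a log2 limit of 1, and those called lower from 2 to 13 there and to 1 with U6 alone, RNU43 alone, the second run alone or 1.9-fold per cycle. The median log2 fold of all microRNAs itself moved with the reference, from -0.48 to 0.67 with RNU43 and -1.16 with U1 in NSCs relative to MEFs, and from -0.42 to 0.56 and -0.86 relative to ESCs.

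The median of the members minus that of the other assays of plate 2 went from 0.02 to 0.42 in NSCs relative to ESCs with late and empty wells set to a Ct of 32. In ESCs relative to MEFs it went from 0.05 to -0.30 with that cap and to -0.12 with late assays left out. For the range over cell types the same difference went from -0.42 cycles to -0.22 with U6 alone, -0.24 with RNU43 alone, -0.14 with U1 alone and -0.58 with the cap at 32, the members keeping the smaller median in each. These alternatives for the range were chosen after seeing the data. The calls of miR-1949 in both comparisons, and of miR-1894-3p, miR-1957 and miR-1897-5p in ESCs relative to MEFs, held in all 12 alternatives. The lower log2 limit could end no call, and caps and filters on late wells left the values of most named calls as they were. Apart from the references and limits named, the cause of a change was not tested.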
